A study of Mus musculus with 2 samples.

Results

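The genes examined here encode 8 coregulators of steroid receptors, the proteins that a receptor recruits to switch transcription up or down. They are the coactivator genes Ncoa1, Ncoa2, Ncoa3, Ncoa6, Cited2 and Greb1 and the corepressor genes Ncor1 and Nrip1, taken as a named list. A peak was counted for a gene when its summit lay in the RefSeq span of that gene on GRCm38.p6, the assembly of the mm10 build. By this rule the list held 37 of the 26584 deposited peaks. All 8 of its genes had at least 1 peak, as did 9831 (44.9%) of the 21900 protein-coding genes.

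The peaks mark RNA fragments enriched with an antibody against N6-methyladenosine (m6A), the methylated adenosine most common inside mRNA. Uteri came from wild-type female mice that were 6 to 8 weeks old when mated with fertile males and that were killed on gestational day 4, with the plug day counted as day 1. There was 1 immunoprecipitated (IP) sample and 1 input sample of polyA RNA, both of mixed cell type and with no other treatment or allele given. With no replicate, no test across samples was possible, and every value below describes this 1 peak list. The labels do not say how many mice gave the RNA.

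Every peak name in the list starts with D8NegIP-Posinput, a run name at odds with the labelled day. Whether the list belongs to the day 4 sample, and which library served as its background, is therefore unsettled for every value below. The median peak of the whole list rested on 18 IP fragments (quartiles 11 and 31) over a background of 1.42. Of the marker genes listed for the tissue, all 6 of stroma, 4 of smooth muscle and 4 of endothelium had a peak, as did 5 of 6 of epithelium, where Krt18 had none. None of 4 leukocyte and none of 4 preimplantation embryo markers had one, against 1 of 4 for ovary and oviduct (Ovgp1) and 2 of 3 for fat (Adipoq and Fabp4). Over all protein-coding genes the share with a peak was 44.9%. By class of gene span it ran from 27.3 to 71.2%, and these short lists were not matched for span. In whole tissue, fewer cells of a type, less RNA per cell and RNA present without the mark cannot be told apart from a peak list.

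Steroid receptors are transcription factors that change shape on binding their hormone and then dock coactivators through short leucine-rich motifs. Coactivators of the p160 family bring acetyltransferases and methyltransferases that open chromatin, whereas corepressors bring histone deacetylases or compete for the same docking surface. In the uterus before implantation, progesterone and oestrogen act through such receptors and coregulators to prepare the tissue for the embryo. The m6A mark is laid down on the transcript by a methyltransferase complex and is read by proteins that affect its splicing, decay and translation.

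All 8 genes carried a peak (8 of 8, Wilson 95% interval 67.6 to 100%), against 44.9% of all protein-coding genes. The 8 are not a random draw and were chosen with earlier results of these data known. Neither the count nor its interval is therefore a test of an excess. Among genes of like span the share was 27.3% under 10 kb (the class of Cited2), 60.3% from 50 to 100 kb (Ncoa3, Ncoa6 and Nrip1), 71.2% from 100 to 200 kb (Greb1 and Ncor1) and 70.3% from 200 kb (Ncoa1 and Ncoa2). Genes with 5 or more peaks made up 5.1% of protein-coding genes and 11.4% of those with a peak, and numbered 5 among the 8. By peaks per 100 kb of span, Cited2 stood at percentile 97.8 of protein-coding genes with a peak. Ncoa3 (52.1) and Ncoa6 (51.0) lay near the middle, and Ncor1 (34.8), Ncoa1 (25.7), Ncoa2 (25.1), Greb1 (12.1) and Nrip1 (8.55) below it. Ncoa1 and Ncoa2 had 7 peaks each, Ncoa3, Ncoa6 and Ncor1 6 each, Cited2 and Greb1 2 each and Nrip1 a single one. No expression level was analysed here, and its part in these counts was not tested.

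The strength of a peak is its fold enrichment, the ratio of IP fragments plus 1 to background plus 1 at the summit, as the authors' peak caller gave it. The strongest peak of Ncoa2 had a fold enrichment of 27.7 (95% Poisson interval of the IP count 22.5 to 33.8). Ncoa6 followed with 22.8 (17.8 to 28.7), Cited2 with 18.9 (14.9 to 23.7) and Nrip1 with 17.8 (14.2 to 21.9). The lower 4 were Ncoa1 with 14.8 (11.0 to 19.5), Ncoa3 with 12.6 (9.66 to 16.1), Ncor1 with 10.8 (8.21 to 13.9) and Greb1 with 10.3 (7.40 to 14.0). These intervals cover counting error of the IP fragments only, since the background was taken as known and amplified fragments are not independent molecules. Every gene's interval overlapped that of its neighbour in this order, and the intervals of 12 of the 28 pairs did not overlap. Ncoa2 accounted for 5 of those pairs, standing clear of Ncoa1, Ncoa3, Nrip1, Ncor1 and Greb1, but not of Ncoa6 or Cited2.

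**Figure D1:**
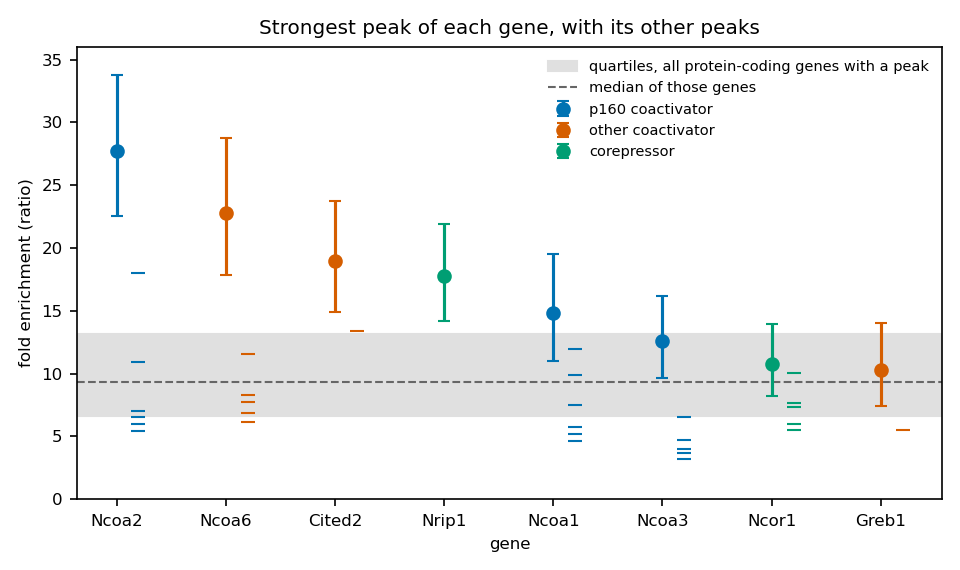
Fold enrichment (ratio, y axis) of the strongest peak of each of the 8 genes (x axis), as filled points with 95% Poisson intervals of the IP count, and of each gene's other peaks as short dashes to the right; colours give the role, and the grey band and dashed line are the quartiles and median of strongest peaks over all protein-coding genes with a peak. All 8 points lie above the median of 9.36, and 5 lie above the upper quartile of 13.1.

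The median of the 8 strongest peaks was 16.3, beside 9.36 (quartiles 6.65 and 13.1) over the 9831 protein-coding genes with a peak. By point value all 8 lay above that median and 5 above the upper quartile. The intervals of Greb1 and Ncor1 included the median, and that of Ncoa1 included the upper quartile. A highest value can rise with the number of peaks. Against genes with the same number of peaks, Ncoa2 stood at percentile 96.6, Nrip1 at 95.8, Cited2 at 93.8 and Ncoa6 at 90.9. Greb1 (59.0) and Ncoa1 (54.2) lay near the middle, and Ncoa3 (38.4) and Ncor1 (22.2) below it. Over all 37 peaks of the 8 genes the median fold enrichment was 7.53, and 20 of them exceeded 7.14, the median of all peaks in the list.

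Ncoa1 encodes SRC-1, the founding p160 coactivator, which binds progesterone and oestrogen receptors directly. Its 7 peaks had fold enrichments of 14.8, 9.91, 7.53, 5.78, 4.64, 5.15 and 11.9, in order from the 5′ to the 3′ side of the gene. They rested on 48, 16, 21, 11, 9, 20 and 50 IP fragments. The first and the last were thus the strongest, with weaker peaks between them, and the intervals of the peaks of 14.8, 11.9 (8.93 to 15.7), 9.91 (5.92 to 15.7) and 7.53 (4.79 to 11.3) overlapped. All 7 summits lay between 79.2% and 99.8% of the way along the 229.8 kb span at chr12:4247362-4477206, and the first 182 kb from the 5′ end held none. The strongest, at chr12:4294969-4295790, lay 47.8 kb from the 3′ end, and the last only 0.549 kb from it.

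Ncoa2 encodes SRC-2, also called TIF2 or GRIP1, the p160 coactivator that the progesterone receptor of the mouse uterus depends on for implantation and decidualization. From the low-coordinate end its 7 peaks had fold enrichments of 5.42, 6.00, 10.9, 27.7, 6.50, 18.0 and 6.98, on 19, 20, 31, 96, 13, 35 and 10 fragments. The peak of 27.7, at chr1:13173915-13175262, was 1348 bases wide and stood at percentile 98.9 of the strongest peaks of protein-coding genes. The second in strength, 18.0 (12.7 to 24.8) at chr1:13221323-13221667, lay over a background of only 1.00, and its interval overlapped that of the strongest. All 7 summits fell within the low-coordinate 36.4% of the 235.1 kb span at chr1:13139105-13374227, which left 149.5 kb at the other end without a peak. The table of gene starts that gave the strand of other genes does not list Ncoa2 or Ncoa3, so their positions are given by coordinate.

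Ncoa3 encodes SRC-3, also called AIB1, the p160 coactivator known for its amplification in breast cancer. Its 6 peaks from the low-coordinate end had fold enrichments of 3.17, 12.6, 6.53, 4.73, 3.68 and 3.96, on 3, 60, 12, 21, 14 and 13 fragments. One peak, at chr2:166054739-166055631, was thus followed by weaker ones, and only that of 6.53 (3.61 to 11.0) had an interval that reached the strongest's. The weakest of all 37 peaks was the first, 3.17 (1.28 to 7.74), whose summit lay 62 bases inside the span and also in that of a predicted gene, LOC115489489. The median over the 6 peaks, 4.34, was at percentile 5.03 of protein-coding genes with a peak, the lowest of the 8 genes. The other 5 summits lay between 77.9% and 96.7% of the 80.6 kb span at chr2:165992637-166073242.

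**Figure D2:**
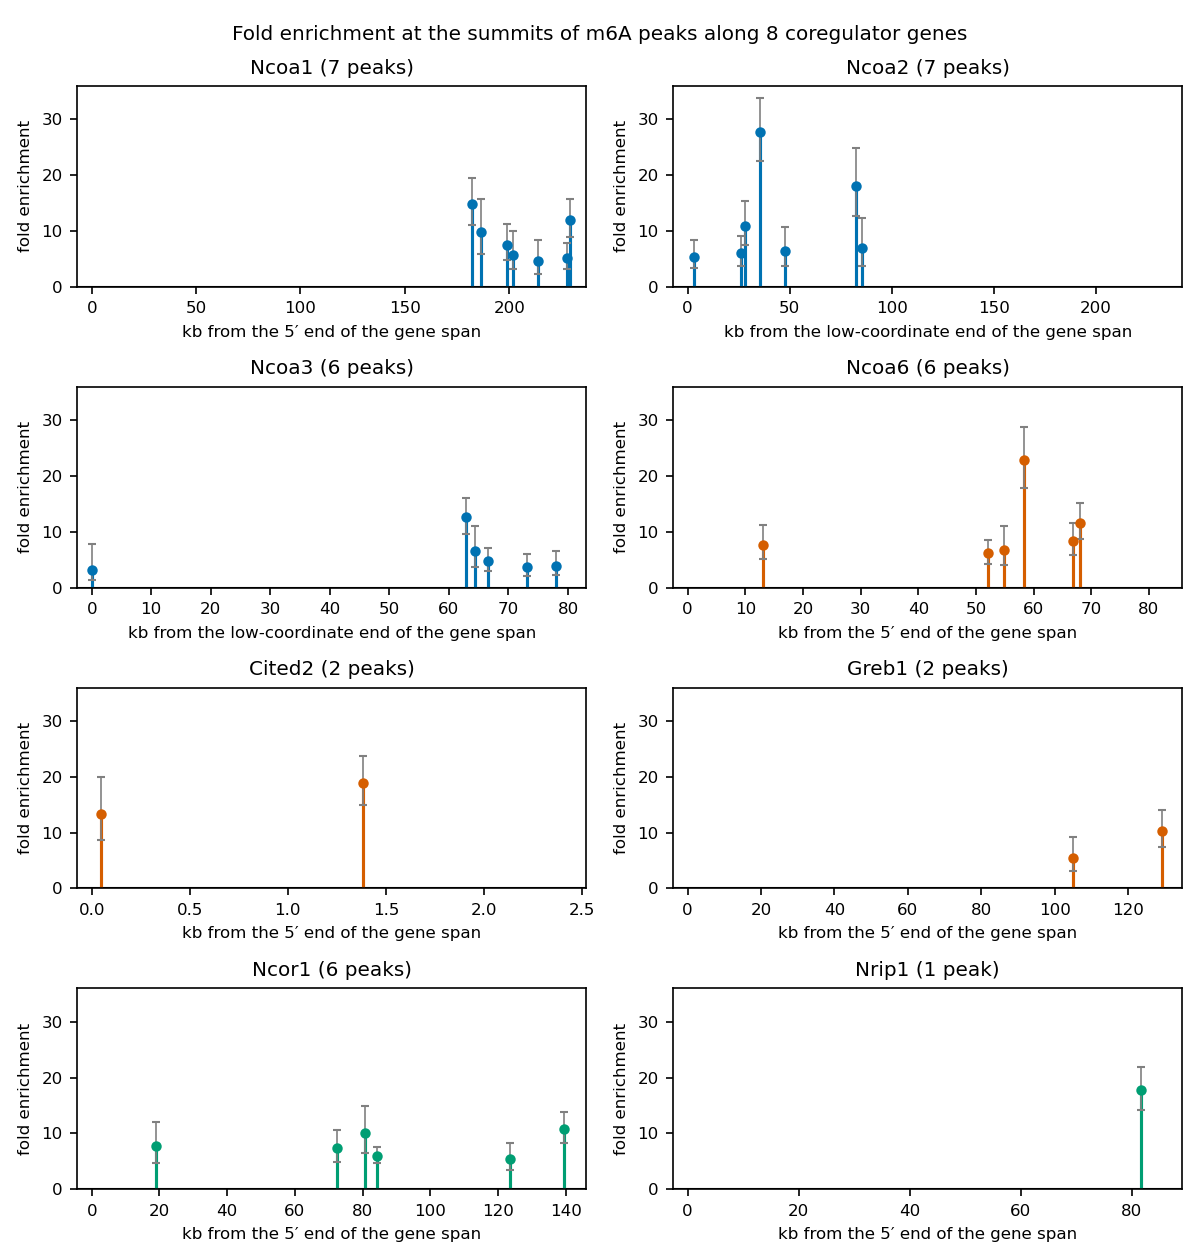
Fold enrichment (ratio, y axis) at the summit of every peak in the 8 genes against its distance in kb (x axis) from the 5′ end of the gene span or, for Ncoa2 and Ncoa3, from the low-coordinate end; points are peaks and bars are 95% Poisson intervals of the IP count. The 7 peaks of Ncoa1 lie in the last part of its span, from 182 kb on, those of Ncoa2 within 85.6 kb of the low-coordinate end, and those of Ncor1 are spread from 18.9 to 139.6 kb.

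The 3 p160 genes together held 20 of the 37 peaks, with a median fold enrichment of 6.51. Between the paralogues the strongest peak of Ncoa2 stood apart from those of Ncoa1 and Ncoa3 by non-overlapping intervals, while those of Ncoa1 and Ncoa3 overlapped. By the median over a gene's peaks the 3 were closer, at 7.53 for Ncoa1, 6.98 for Ncoa2 and 4.34 for Ncoa3. In each gene the strongest peak was also the widest, at 822, 1348 and 893 bases.

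Ncoa6 encodes a coactivator, also called ASC-2 or PRIP, that is a subunit of the histone methyltransferase complexes built on KMT2C and KMT2D. From the 5′ side its 6 peaks had fold enrichments of 7.72, 6.12, 6.82, 22.8, 8.26 and 11.6, on 26, 31, 15, 70, 33 and 51 fragments. The strongest, at chr2:155414847-155415963, had an interval that those of the other 5 did not reach, and it was 1.97 times the next, 11.6 (8.66 to 15.1). It lay 58.3 kb from the 5′ end of the 83.3 kb span at chr2:155390656-155473911. Ncoa6 had 3 of the 7 peaks of 1000 bases or more among the 8 genes, 1117, 1674 and 1104 bases wide, and 7.04% of its span lay in peaks. The first peak, of 7.72, had its summit also in the pseudogene Gm14239, upstream of the single start listed for Ncoa6, so its transcript of origin is not settled.

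Cited2 encodes a small transcriptional adaptor that binds the acetyltransferases CBP and p300. It is the shortest of the 8 genes, 2447 bases at chr10:17723228-17725674. The widths of its 2 peaks came to 1268 bases, or 51.8% of that length, although the first peak begins 17 bases before the span. The peak at the 5′ end, chr10:17723211-17723450, had a fold enrichment of 13.4 (8.58 to 19.9) on 22 fragments over a background of 0.723. The second, chr10:17723781-17724808, had 18.9 (14.9 to 23.7) on 74 fragments over 2.96. Their intervals overlapped, and without the 1 added to both counts the order turned, to 30.4 for the peak at the 5′ end and 25.0 for the other.

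The peak at the 5′ end of Cited2 was 1 of 2 that reached a listed transcription start of the 8 genes. The start table matched 6 of them with 9 windows, each of 250 bases before a start and 50 after it. Of the windows of protein-coding genes that had a peak, 13.5% were overlapped by a peak and 2.49% held a summit. The Cited2 peak began 17 bases before the start, and its summit lay on base 50 after it, counted from 1 at the first transcribed base. The RefSeq sequence around that start is shown because the peak runs across it, from 250 bases before the start to base 30 (GRCm38.p6, chr10:17722978-17723257, + strand), with the bases covered by the peak in capitals.
Cited2: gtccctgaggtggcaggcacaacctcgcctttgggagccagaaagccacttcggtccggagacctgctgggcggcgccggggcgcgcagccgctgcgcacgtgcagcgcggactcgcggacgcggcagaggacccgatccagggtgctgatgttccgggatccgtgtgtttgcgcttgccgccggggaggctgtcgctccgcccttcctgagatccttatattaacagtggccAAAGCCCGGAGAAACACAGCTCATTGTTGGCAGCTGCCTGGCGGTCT

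Greb1, growth regulation by oestrogen in breast cancer 1, is induced by oestrogen and encodes a chromatin-bound partner of the oestrogen receptor. Its 2 peaks were the fewest per length of any of the genes with several, 1.53 per 100 kb of its 130.8 kb span at chr12:16670615-16801394. The stronger, at chr12:16671697-16672718, had a fold enrichment of 10.3 (7.40 to 14.0) on 39 fragments and lay 1.41 kb from the 3′ end. The other had 5.52 (3.12 to 9.15) on 13 fragments and lay 25.7 kb from it. They lay at 98.9% and 80.3% along the gene, and neither of its 2 listed starts was overlapped by a peak. The strongest peak of Greb1 was the weakest of the 8, at percentile 57.8 of protein-coding genes with a peak.

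Ncor1 encodes the nuclear receptor corepressor NCoR, the scaffold that holds the deacetylase HDAC3 on receptors without agonist. Its 6 peaks, from the 5′ side, had fold enrichments of 7.67, 7.31, 10.1, 5.97, 5.46 and 10.8, on 17, 26, 23, 67, 20 and 57 fragments. They were the most even of any gene with more than 2 peaks: the strongest was 1.07 times the next, and the intervals of 4 of the other 5 reached that of the strongest. The summits were spread over 85.2% of the 141.8 kb span at chr11:62315663-62457414. The peak of 10.8, at chr11:62317618-62318191 and 2.12 kb from the 3′ end, lay where Ncor1 overlaps the gene Ttc19 on the opposite strand, and the peaks carry no strand. Counting only summits in a single gene, the strongest peak of Ncor1 was that of 10.1 (6.53 to 14.9). The peak of 5.97 (4.65 to 7.56) had the highest background of the 37, 10.4, and rested on the most fragments of any Ncor1 peak.

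The first peak of Ncor1, 7.67 (4.65 to 12.0) at chr11:62438404-62438605, lay across a start listed inside the gene, 18.9 kb from the 5′ end of the span. The other listed start, at the 5′ end, was not overlapped. The summit was on base 23 after the internal start, and the peak ran from 90 bases before it to base 112. The sequence around this start is shown because the peak spans it (GRCm38.p6, chr11:62438486-62438765, - strand), from 250 bases before the start to base 30, with the covered bases in capitals.
Ncor1, internal start: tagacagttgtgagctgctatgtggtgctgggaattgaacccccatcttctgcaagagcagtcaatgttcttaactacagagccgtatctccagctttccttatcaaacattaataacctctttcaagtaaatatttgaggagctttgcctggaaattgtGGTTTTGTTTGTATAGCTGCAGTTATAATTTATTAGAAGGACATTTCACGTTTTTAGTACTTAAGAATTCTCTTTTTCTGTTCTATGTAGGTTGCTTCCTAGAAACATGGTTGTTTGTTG

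The stretches shown differed in composition, with 66.1% G and C in Cited2 and 37.1% in Ncor1. GGACT, a common form of the m6A consensus, was searched on both strands of the 300-base windows, where neither strand's form overlaps the other. It occurred in both windows on the sense strand, the one that reads as the transcript does. In Cited2 it lay 141 bases before the start, outside the peak and outside a transcript from that start. In Ncor1 it lay from base 30, beyond the summit. None of the other 7 windows of these genes held it on the sense strand. Of all 32851 windows, 26.1% held it on the sense strand and 45.5% on either. A match is a description of the letters and not of a methylated site. Antibodies against m6A also bind m6Am, a methylated adenosine next to the cap. The first base of the listed start was A in Cited2, where m6A and m6Am cannot be told apart here. It was G at the internal start of Ncor1. The starts in use in this tissue were not measured.

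Nrip1 encodes RIP140, a corepressor that binds agonist-bound receptors in place of coactivators and is needed for ovulation; its coding sequence lies in a single exon. The gene had 1 peak, at chr16:76290779-76295191, with a fold enrichment of 17.8 (14.2 to 21.9) on 85 fragments over a background of 3.84. That peak was 4413 bases wide, a width that 33 of the 26584 peaks (0.124%), this one among them, reached, against a median of 322 bases. It covered the stretch from 3.38 to 7.79 kb from the 3′ end of the 86.4 kb span at chr16:76287403-76373827, and the 81.6 kb from the 5′ end to the summit held no other summit. Single-peak genes had a median of 7.09 over 4099 genes, and Nrip1 stood at percentile 95.8 of them. Exons were not available in the gene table, so how much of the peak lies in the coding exon was not tested.

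Where the strand was listed, the share of peaks towards the 3′ end had an interval that includes the share over all genes. In the 6 genes with a strand, 14 of 24 summits (58.3%, 38.8 to 75.5, Wilson) lay beyond 75% of the span, beside 47.5% over all protein-coding genes with a listed strand. Summits of the same gene are not independent, and all 7 of Ncoa1 were among the 14. The interval therefore does not measure the spread between genes. For the strongest peak of each gene the count was 4 of 6 (Ncoa1, Greb1, Ncor1 and Nrip1), beside 50.5%. Ncoa6, at 70.1% along its span, and Cited2, at 56.5%, made up the rest. Spans include introns, so these are positions along the gene and not along the mRNA.

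Broad peaks were found in 5 of the 8 genes, a count for which no share over all genes was computed. Of the 37 peaks, 7 were 1000 bases wide or more, in Ncoa2, Ncoa6, Cited2, Greb1 and Nrip1, against 9.51% of all peaks. In 6 of the 7 genes with several peaks the strongest was also the widest, the exception being Ncoa6. The same held for 59.3% of protein-coding genes with 2 or more peaks. Width and fold enrichment are read from the same pileup, so the 2 are not independent.

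The strongest peaks rested on 39 fragments in Greb1 to 96 in Ncoa2, over backgrounds from 2.11 in Ncoa6 to 4.38 in Ncor1, while the median background of strongest peaks over all protein-coding genes was 1.54. Among the 2465 genes with a background in that range, the median of the strongest peak was 10.6 (quartiles 7.27 and 14.4), which 7 of the 8 genes exceeded and Greb1 did not. Ncoa2 was at percentile 99.2 of these genes, Ncoa6 at 96.7, Cited2 at 91.0, Nrip1 at 88.0, Ncoa1 at 76.7, Ncoa3 at 64.8, Ncor1 at 50.7 and Greb1 at 47.2. Of the 37 peaks, 2 rested on fewer than 10 fragments, 1 each in Ncoa1 and Ncoa3.

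**Figure D3:**
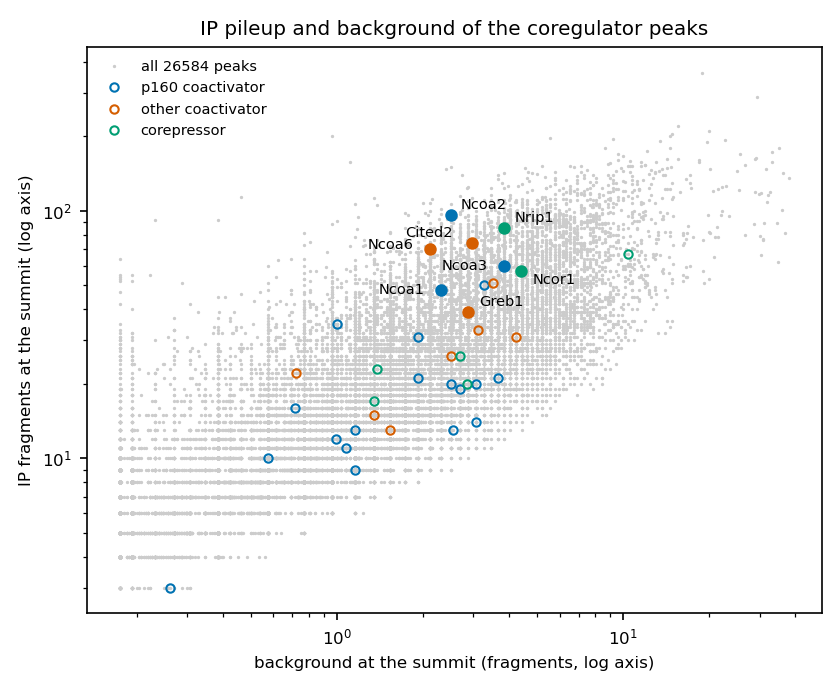
IP fragments at the summit (y axis, log scale) against the background at the summit (x axis, fragments, log scale) for all 26584 peaks in grey and the 37 peaks of the 8 genes in colour by role; filled points are each gene's strongest peak. The strongest peaks lie at backgrounds of 2.11 to 4.38, with Ncoa2 highest at 96 fragments and Greb1 lowest at 39.

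A few peaks lay just beyond the ends of these genes and were not counted. A summit 629 bases beyond the 5′ end of Ncor1 had a fold enrichment of 7.91 (4.48 to 13.1), outside every gene span. Another, 1644 bases beyond its 3′ end in Ttc19, had 5.75 (3.53 to 8.91). Past the high-coordinate end of Ncoa3, summits at 1273 and 2316 bases, both in the neighbouring gene Sulf2, had 10.5 (8.18 to 13.3) and 6.29 (4.00 to 9.46). No other gene of the 8 had a summit within 5000 bases outside its span. The summits nearest to an end on the inside were those at 49 bases in Cited2 and 62 bases in Ncoa3.

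Other coregulators, listed by role, also carried peaks in most cases: 44 of 54 (81.5%, 69.2 to 89.6), with 170 peaks. Over all protein-coding genes the share was 44.9%, and by class of span it ran from 27.3% under 10 kb to 71.2% from 100 to 200 kb. The 54 genes were not matched for span, and they were chosen with earlier results of these data known. The median strongest fold enrichment of the 44 was 11.7, against 9.36 over protein-coding genes with a peak. Of the enzymes that p160 coactivators recruit, 5 of 7 had a peak, with a median of 6.43. Ep300 reached 18.2 (13.1 to 24.8), Crebbp, with 15 peaks, 16.3 (13.4 to 19.7), and Kat5, an acetyltransferase, 6.43 (4.18 to 9.52), while Kat2b and Prmt1 had none. Of the Mediator genes, whose complex links receptors to RNA polymerase, 5 of 8 had a peak. Med1, the subunit that receptors contact, had 23.0 (18.7 to 28.0), Cdk8 12.1 (9.13 to 15.8) and Med13 11.8 (9.11 to 14.9), the last in a span shared with another gene. Med14, Med23 and Med24 had none.

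All 6 listed genes of the NCoR complex, the partners of Ncor1, had a peak. Over all protein-coding genes the share was 44.9%, and it was 27.3 to 71.2% across the classes of span in which the 6 lie. Their strongest peaks ran from 4.59 to 27.4, with a median of 11.7. Spen, a receptor-binding repressor, reached 27.4 (19.5 to 37.6) over a background of 0.384. Gps2, a subunit of the complex, had 14.2 (10.5 to 18.9), Zbtb33, which encodes the DNA-binding protein Kaiso, 13.0 (9.12 to 18.0), and Hdac3, the catalytic subunit, a single peak of 4.86 (2.90 to 7.71).

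Of the other corepressors, 11 of 14 had a peak, with a median of 9.85. Over all protein-coding genes 44.9% had a peak, and 27.3 to 71.2% by class of span. The median strongest peak of those genes was 9.36. Safb2 had 23.5 (17.1 to 31.6), Lcor, a ligand-dependent corepressor, 17.5 (13.4 to 22.6) and Safb 17.3 (13.9 to 21.3), whereas Hdac1, Hdac2 and Trim28 had none. Of the other coactivators, 17 of 19 had a peak, with a median of 11.9. Pelp1, an oestrogen receptor coactivator, had 24.7 (18.9 to 31.9), Ppargc1b 24.0 (16.8 to 33.2) and the methyltransferase gene Nsd1 16.4 (13.3 to 20.0). The only genes of that list without a peak were relatives of listed members: Cited1, related to Cited2, and Greb1l, the paralogue of Greb1. Cited4, also related, had 1 peak of 8.42 (5.42 to 12.6). Read depth over genes lacking peaks was not analysed, so absence of a peak is no measure of absence of m6A.

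**Figure D4:**
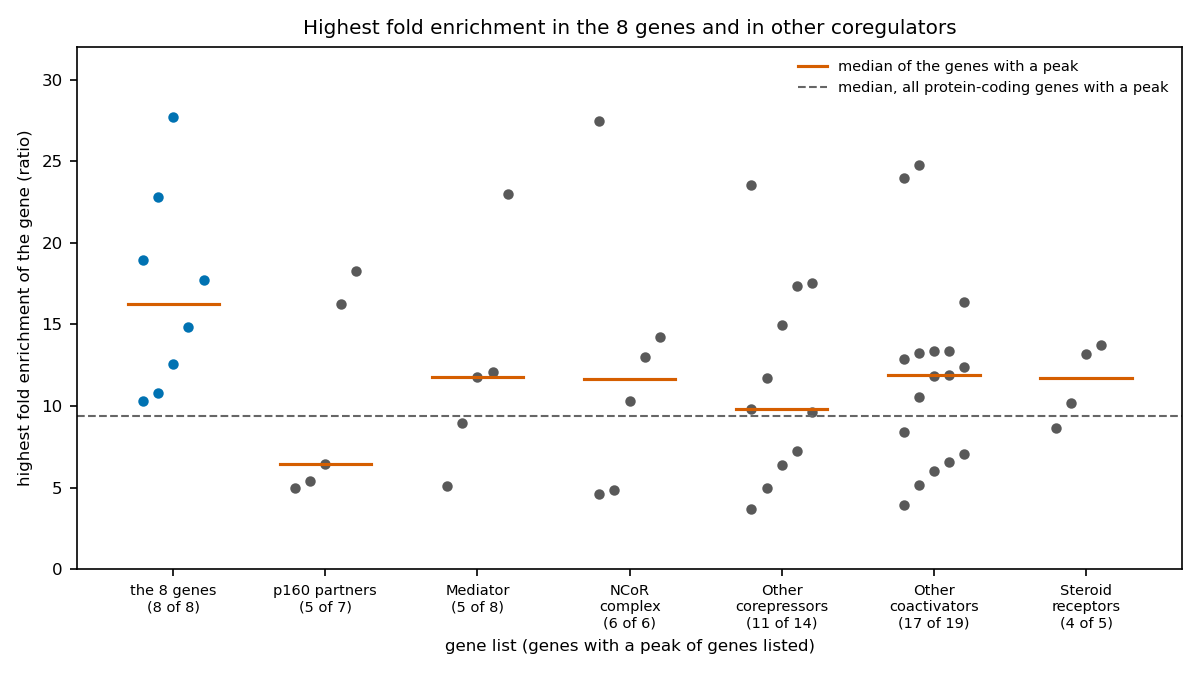
Highest fold enrichment per gene (ratio, y axis) in the 8 genes and in lists of other coregulators and steroid receptors (x axis, with genes with a peak of genes listed); each point is a gene with a peak, spread sideways for legibility, orange bars are medians and the dashed line is the median of all protein-coding genes with a peak. Medians run from 6.43 for the p160 partners to 16.3 for the 8 genes, and the points of every list overlap those of the 8.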

How the data were processed

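The 1 peak list analysed belongs to the IP sample; nothing from the input sample was analysed. HISAT2 2.2.1, MACS3 3.0.0a7 and the mm10 build are named in the submitters' processing notes. Peak calling settings, pooling and the role of the input were not given in these sources. The deposited file gives a fold enrichment (a ratio), −log10 p, −log10 q and a score, which equals 10 times −log10 q within 1 in all 26584 peaks. The lowest deposited −log10 q was 1.31. These values, from the authors' peak caller, served to describe and rank peaks within the list.

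From fold enrichment and p, each summit's IP fragments and background were solved with the Poisson tail. The count came out whole, within 0.05 of a step, for 99.97% of peaks. The solver was tested on simulated data. Intervals are 95% exact Poisson intervals of that count with the background taken as known, or Wilson intervals for shares. They cover counting error only. Percentiles place ties midway.

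Gene spans came from a RefSeq table of 49997 genes on GRCm38.p6, without exons. Strand, starts and sequences came from a RefSeq table of promoter windows, which held 6 of the 8 genes. Coordinates count from 1. A summit in several spans counted for each gene. The members, lists and tests were chosen with earlier results of these data known. Named genes are the 8 members and, of each list, the 3 with the highest fold enrichment and those without a peak, leaving out some items not reported here; Crebbp's peak count, Hdac3, Cited4 and Nr3c1 were named with their values in view. Alternatives raised the threshold to −log10 q 5, to fold enrichment 4 or to a pileup of 10, assigned peaks by any or by 50% overlap, kept summits in exactly 1 gene, extended spans by 1000 bases, took each gene's median peak, or dropped the pseudocount. Software was scipy 1.17.1, numpy 2.4.6, matplotlib 3.10.9 and pandas 2.3.3 under Python 3.11.15.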

Additional observations from a re-analysis of the deposited data

How the results depend on the processing

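The count of genes with a peak was 8 under all 7 alternatives of threshold and assignment, and the total of 37 peaks ranged from 33 to 38. The median of the 8 strongest fold enrichments, 16.3, was 7.72 when each gene was given by its median peak and 22.2 without the pseudocount, by the construction of these measures. Without the pseudocount another peak became the strongest in Cited2 (30.4 against 25.0), Ncoa1 (22.4 against 20.8) and Ncor1 (16.6 against 13.0). With −log10 q of at least 5, or fold enrichment of at least 4, Ncoa3 had 3 peaks in place of 6. The count of other coregulators with a peak stayed between 42 and 44 of 54. The share of summits beyond 75% of the span was 56.5% with a pileup of at least 10 or −log10 q of at least 5, and 66.7% with the strongest peak only. No paired analysis was possible because there is 1 IP sample and 1 input sample and no test across samples. Depth limits single weak peaks most, such as that of Ncoa3 on 3 fragments.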

Other observations

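The receptors that these coregulators serve had peaks in 4 of the 5 cases listed, with a median strongest fold enrichment of 11.7. The share over all protein-coding genes was 44.9%, and it was 60.3 to 71.2% in the classes of span of 50 kb or more, in which all 5 receptor genes lie. The progesterone receptor gene Pgr had 13.8 (10.6 to 17.5) and the oestrogen receptor gene Esr1 13.2 (10.02 to 17.1). The mineralocorticoid receptor gene Nr3c2 had 10.2 (6.50 to 15.4) and the glucocorticoid receptor gene Nr3c1 8.67 (6.59 to 11.2), with 2 peaks each, while Esr2 had none. The strongest peak of Ncoa2 lay above those of Pgr and Esr1 by non-overlapping intervals, and that of Ncoa6, 22.8 (17.8 to 28.7), lay above them in the same way. The intervals of Cited2, Nrip1 and Ncoa1 overlapped those of both receptor genes, and the strongest peaks of Ncoa3, Ncor1 and Greb1, at 12.6, 10.8 and 10.3, were lower than both, with overlapping intervals. Those intervals cover counting error of the IP fragments only, and error in the background, taken as known, is left out.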
